A study of Mus musculus with 12 samples.

Results

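Tagged and endogenous GZF1 were compared in RGM, a 129xCAST line of mouse embryonic stem cells, with 2 of the 12 chromatin immunoprecipitation libraries of the series. The first was made with anti-FLAG M2 from Gzf1-Flag clone 56, in which Gzf1-Flag was expressed ectopically, and the second with anti-GZF1 from wild-type cells of the same line. The members described here are the autosomal 1 kb bins that stood out with either antibody: 958 of 2091403 tested bins, of which 19 were called with both antibodies, 59 with anti-FLAG alone and 880 with anti-GZF1 alone. Among the latter groups, 16 anti-FLAG bins and 90 anti-GZF1 bins were below a second, lower limit with the other antibody. The remaining 43 and 790 lay in between. Being below that limit does not mean that signal was absent.

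The chromatin was fixed with 1% formaldehyde and digested with micrococcal nuclease. Each side is 1 library, so no test between the antibodies was possible, and intervals given below are 95% intervals for counting error only. The overexpression of the tagged protein and the antibody changed together, so their parts in any difference cannot be told apart. Clone 56 is a single clone, no GZF1 protein level was analysed here, and neither an RGM input nor an RGM anti-FLAG library without the tag was analysed here. The anti-FLAG library held 66.98 M reads (26.5 per autosomal bin) and the anti-GZF1 library 21.8 M (8.61 per bin). Immunoprecipitated DNA holds no expression, so the cell type label could not be checked against marker genes. As further readouts, 6 libraries of the Cas9-GFP line of embryonic stem cells (called Cas9 below) were used: anti-FLAG from Gzf1-Flag clone 35, anti-GZF1 from wild type, control and Gzf1 knockout, anti-H3K27ac from wild type, and input.

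GZF1 is a nuclear protein with a BTB domain, which mediates contacts between proteins, and a row of C2H2 zinc fingers that bind DNA. It was first described through GDNF, a growth factor that signals through the RET receptor in kidney development. The title of the series places it at the Dlk1-Dio3 domain, an imprinted cluster whose control element, the IG-DMR, is methylated on the paternal chromosome. Zinc-finger proteins that read methylated or unmethylated CG dinucleotides are known to keep such elements in their parental state in embryonic stem cells. H3K27ac is a histone mark of active promoters and enhancers, many of which are rich in CG dinucleotides.

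Promoter sequences of 7 genes are shown because CG content is compared between the antibodies below. They are examples picked after their values were seen, and given as the 250 bases before the annotated start, 5′ to 3′ on the strand of the gene, from RefSeq (GRCm38.p6), with every CG in capitals. Gm34081, whose start bin adjoins the IG-DMR peak bin, stands for anti-FLAG calls with anti-GZF1 below the lower limit. Cald1, Fbxw10 and Idh1 stand for anti-FLAG calls with anti-GZF1 in between, and Pdzrn3 and Slc10a7 for bins called with both antibodies. Wasf1 stands for anti-GZF1 calls with anti-FLAG below the lower limit.
Gm34081 (chr12:109526270-109526519, minus strand): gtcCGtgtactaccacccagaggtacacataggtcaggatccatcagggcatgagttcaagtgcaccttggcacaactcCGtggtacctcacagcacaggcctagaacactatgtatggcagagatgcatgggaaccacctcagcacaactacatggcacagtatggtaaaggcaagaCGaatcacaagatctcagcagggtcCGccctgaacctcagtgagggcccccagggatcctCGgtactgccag
Cald1 (chr6:34709194-34709443, plus strand): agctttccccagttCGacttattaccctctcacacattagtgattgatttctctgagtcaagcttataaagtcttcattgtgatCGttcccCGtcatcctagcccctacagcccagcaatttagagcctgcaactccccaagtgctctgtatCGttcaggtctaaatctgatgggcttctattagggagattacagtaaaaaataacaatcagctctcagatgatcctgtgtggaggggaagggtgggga
Fbxw10 (chr11:62846873-62847122, plus strand): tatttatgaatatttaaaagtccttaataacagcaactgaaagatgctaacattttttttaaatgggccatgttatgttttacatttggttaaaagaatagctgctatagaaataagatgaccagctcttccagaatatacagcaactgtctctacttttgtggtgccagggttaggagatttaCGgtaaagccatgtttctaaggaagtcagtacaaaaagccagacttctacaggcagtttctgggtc
Idh1 (chr1:65186480-65186729, minus strand): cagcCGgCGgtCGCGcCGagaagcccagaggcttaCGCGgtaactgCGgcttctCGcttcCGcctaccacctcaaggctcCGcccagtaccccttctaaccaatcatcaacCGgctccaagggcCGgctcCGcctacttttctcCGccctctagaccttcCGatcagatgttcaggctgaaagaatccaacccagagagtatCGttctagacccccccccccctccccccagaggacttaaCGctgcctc
Pdzrn3 (chr6:101377898-101378147, minus strand): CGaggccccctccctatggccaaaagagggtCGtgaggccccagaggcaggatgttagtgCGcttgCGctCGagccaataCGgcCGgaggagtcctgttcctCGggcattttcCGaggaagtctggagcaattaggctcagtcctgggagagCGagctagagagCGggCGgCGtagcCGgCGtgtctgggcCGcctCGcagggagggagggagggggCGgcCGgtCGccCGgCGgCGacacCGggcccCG
Slc10a7 (chr8:78509078-78509327, plus strand): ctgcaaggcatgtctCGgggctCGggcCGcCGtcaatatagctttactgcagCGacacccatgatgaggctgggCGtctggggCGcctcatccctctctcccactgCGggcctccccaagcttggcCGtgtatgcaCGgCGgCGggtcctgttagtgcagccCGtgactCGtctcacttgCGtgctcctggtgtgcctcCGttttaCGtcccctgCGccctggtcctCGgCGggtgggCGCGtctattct
Wasf1 (chr10:40883284-40883533, plus strand): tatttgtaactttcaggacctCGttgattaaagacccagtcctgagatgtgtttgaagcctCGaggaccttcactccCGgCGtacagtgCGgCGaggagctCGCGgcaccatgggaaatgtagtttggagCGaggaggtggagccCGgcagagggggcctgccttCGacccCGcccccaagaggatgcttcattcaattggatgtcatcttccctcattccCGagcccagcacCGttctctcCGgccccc

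The 250 bases held 5 CG at Gm34081, 4 at Cald1, 1 at Fbxw10, 18 at Idh1, 25 at Pdzrn3, 22 at Slc10a7 and 15 at Wasf1. Cald1 and Fbxw10 are the lowest of the 9 promoters in anti-FLAG bins with anti-GZF1 in between, which held 1 to 31 CG with a median of 16. Wasf1 has as many as the median of all 18 promoters in anti-FLAG bins. The first of these genes is a long non-coding RNA gene, Cald1 encodes the actin-binding protein caldesmon, Fbxw10 encodes an F-box protein, and Idh1 encodes an isocitrate dehydrogenase. Pdzrn3 encodes a ubiquitin ligase, Slc10a7 a member of a solute carrier family, and Wasf1 an activator of actin branching.

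In each library the reads of a bin were divided by the autosomal mean, which gives its density. The local log2 value of a bin is the log2 of this density over the median density of the 10 bins on each side, with 0.5 added to both. A bin was called at a local log2 value of 2 or more, and named anti-FLAG-only or anti-GZF1-only where the other antibody was below 1. These names do not mean that the other signal was absent. The anti-GZF1-only bins had a median anti-FLAG value of 0.92, where the upper quartile of all tested bins was 0.20. Because of the added 0.5, a call needs more than a 4-fold density over the local median.

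Anti-GZF1 called more bins than anti-FLAG in RGM at this threshold. Anti-FLAG called 78 bins (0.00373% of the tested bins) in 66 regions, and anti-GZF1 called 899 bins (0.043%) in 872 regions. The 19 bins called with both are 24.4% of the anti-FLAG bins and 2.11% of the anti-GZF1 bins. The order turned at a threshold of 3, with 6 anti-FLAG and 2 anti-GZF1 bins, and in Cas9 under the same rule, with 124 and 16. The overlap also moved with the settings, to 384 shared of 539 anti-FLAG bins at a threshold of 1.5 and 7 of 41 with 1 in place of 0.5 added to the densities. Counting also the values between 1 and 2, anti-GZF1 reached 1 or more in 62 of the 78 anti-FLAG bins, and anti-FLAG reached 1 or more in 809 of the 899 anti-GZF1 bins. The median anti-GZF1 value in the anti-FLAG bins was 1.58 (0.22 to 4.45), and the median anti-FLAG value in the anti-GZF1 bins was 1.33 (0.48 to 3.22). Every called bin thus had a positive value with the other antibody, while the median over all tested bins was -0.01 with anti-FLAG and 0.00 with anti-GZF1.

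**Figure D1:**
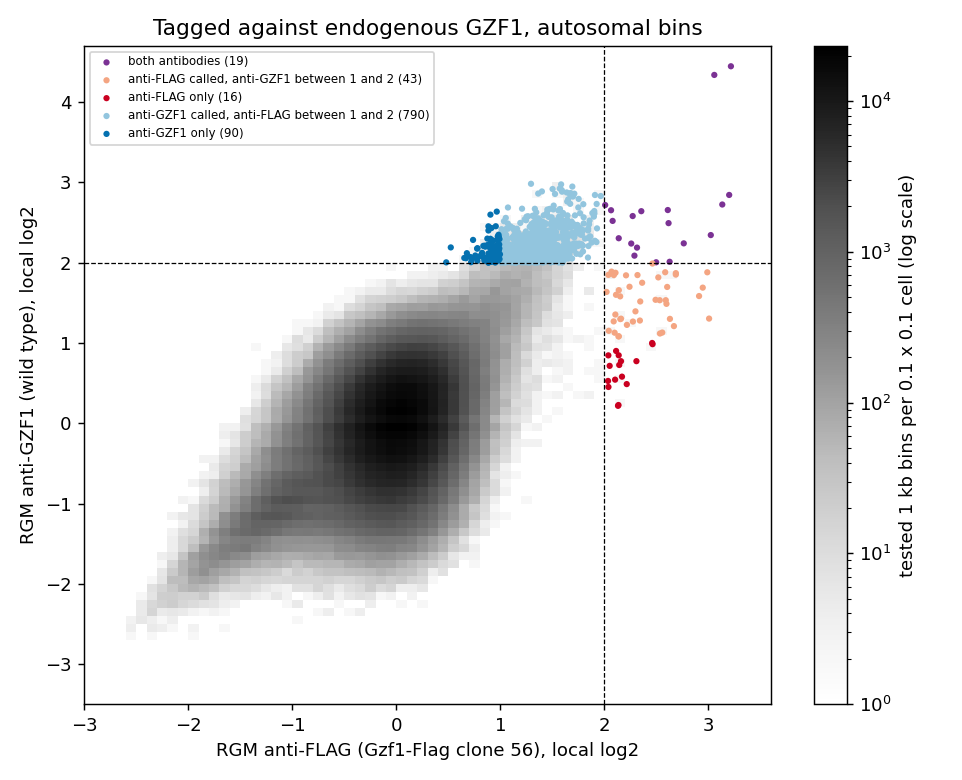
Local log2 values of the 2091403 tested autosomal bins in the RGM anti-FLAG library (horizontal axis) and the RGM wild-type anti-GZF1 library (vertical axis). Grey cells count bins on a log scale, coloured points are the 958 called bins by class, and dashed lines mark the threshold of 2. The called anti-GZF1 bins lie to the right of 0 and the called anti-FLAG bins above 0, and 2 points with anti-GZF1 values of 4.34 and 4.45 stand apart at the top right.

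The classes were cut at fixed values, and the bins next to the threshold differ little from those past it: the lowest called anti-FLAG value was 2.008 and the highest not called 1.998, and for anti-GZF1 these were 2.0006 and 1.9997. For the bins below 1 with the other antibody, the counting error of that value did not reach the threshold. The upper limit of the anti-GZF1 value was below 2 in 16 of 16 anti-FLAG-only bins, and that of the anti-FLAG value was below 2 in 90 of 90 anti-GZF1-only bins. These bins were chosen for a value below 1 in the same reads, so the limits are no separate support. The lower limit of the antibody that called the bin ran from 1.90 to 2.31 in the 10 highest anti-FLAG-only regions. In the 10 highest anti-GZF1-only regions it ran from 1.97 to 2.20, so some calls reach below the threshold. Among the bins in between, the upper limit of the other antibody stayed below 2 in 22 of the 43 anti-FLAG bins and in 756 of the 790 anti-GZF1 bins.

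The input filter bears strongly on the overlap. Bins with a Cas9 input density above 3 or an input local log2 value of 1 or more were left out, which removed 198842 bins. Without this filter anti-FLAG called 171 bins and anti-GZF1 2518, of which 89 were shared (52.0% of the anti-FLAG bins and 3.53% of the anti-GZF1 bins). The 93 anti-FLAG bins that the filter removed had median local log2 values of 2.61 with RGM anti-GZF1, 2.34 with Cas9 anti-FLAG and 1.86 with Cas9 wild-type anti-GZF1. Their medians were 1.40 for H3K27ac, 0.59 in the Cas9 control, 0.59 in the knockout and 1.67 in the input. They were therefore high with both antibodies and in the input, and the part of the input in these values was not tested.

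The sites called with both antibodies were led by 2 bins seen in RGM alone. The bin inside Cers5, a ceramide synthase gene (chromosome 15, 99735001 to 99736000), held 477.3 anti-FLAG and 340.9 anti-GZF1 reads, with local log2 values of 3.22 and 4.45. The bin inside Ubqln1, a ubiquilin gene (chromosome 13, 58177001 to 58178000), held 395.95 and 261.9 reads, with values of 3.06 and 4.34. In Cas9 the Cers5 bin had an anti-FLAG value of -0.09 and an anti-GZF1 value of -0.01, and the Ubqln1 bin at 0.05 and 0.32. These are the 2 highest anti-GZF1 values of all tested bins, and they are absent from the Cas9 libraries, although 16 of the 19 shared bins had 1 or more with Cas9 anti-FLAG. No RGM input was analysed here, so an excess of reads in RGM chromatin cannot be told apart from binding at these bins. Leaving out bins under 0.5 in both Cas9 libraries left 17 shared bins.

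Among shared sites that were also high in Cas9, Adra1a and Pdzrn3 led. The bin inside Adra1a, the alpha-1A adrenergic receptor gene (chromosome 14, 66635001 to 66636000), held 453.05 anti-FLAG reads, a density of 17.1 (15.6 to 18.8), and 87.45 anti-GZF1 reads, a density of 10.2 (8.09 to 12.5). Its local log2 values were 3.20 and 2.84, against 3.15 and 2.14 in Cas9. Anti-GZF1 in the Cas9 control was at 0.41 and in the knockout at -0.03. The peak of Pdzrn3, whose promoter is printed above, lay on 2 adjoining bins. The higher one (chromosome 6, 101378001 to 101379000) held 485.65 anti-FLAG and 116.7 anti-GZF1 reads, with local log2 values of 3.13 and 2.72. In the Gzf1 knockout of the Cas9 line its value was 0.18, and in the control 0.79. At both loci anti-FLAG and wild-type anti-GZF1 thus gave a peak in each line. The Cas9 control with anti-GZF1 was below 1 at both, and the knockout was near its local median. The difference between control and knockout was not tested.

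Further shared bins had an annotated start, and the choice sets their values at 2 or more with both antibodies. Dnajb12, a co-chaperone gene of the endoplasmic reticulum, had 427.6 anti-FLAG and 115.15 anti-GZF1 reads, with local log2 values of 2.61 and 2.66. Slc10a7 had 364.2 and 104.35 reads, with values of 2.62 and 2.49. Chek1, the gene of a DNA damage checkpoint kinase, was at 2.26 and 2.24, and the start of Stxbp5l, a tomosyn gene, at 2.08 and 2.52. The shared start bin of Dab1, an adaptor of reelin signalling, and Gm36604 was at 2.29 and 2.09. Its anti-FLAG density was 1.75 times (1.20 to 2.58) that with anti-GZF1, and at Stxbp5l this ratio was 0.691 (0.516 to 0.943). At Dnajb12, Slc10a7 and Chek1 the interval of the ratio held 1.

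Shared bins away from an annotated start included the insides of Asap2, an Arf GTPase-activating protein gene (2.06 with anti-FLAG and 2.65 with anti-GZF1), of Wdfy1, which encodes an endosomal protein (2.27 and 2.58), and of the unnamed model Gm9732 (2.35 and 2.64). Bins on chromosome 13 (111509001 to 111510000, 3.02 and 2.34) and chromosome 10 (41004001 to 41005000, 2.76 and 2.24) had no gene within 5 kb. The ratio of anti-FLAG to anti-GZF1 density in the 19 shared bins had a median of 1.14. Its interval lay above 1 in 7 of them and below 1 in 4. It was 2.26 (1.64 to 3.27) at the chromosome 13 bin and 1.69 (1.34 to 2.16) at Adra1a, against 0.456 (0.395 to 0.524) at Cers5.

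**Figure D2:**
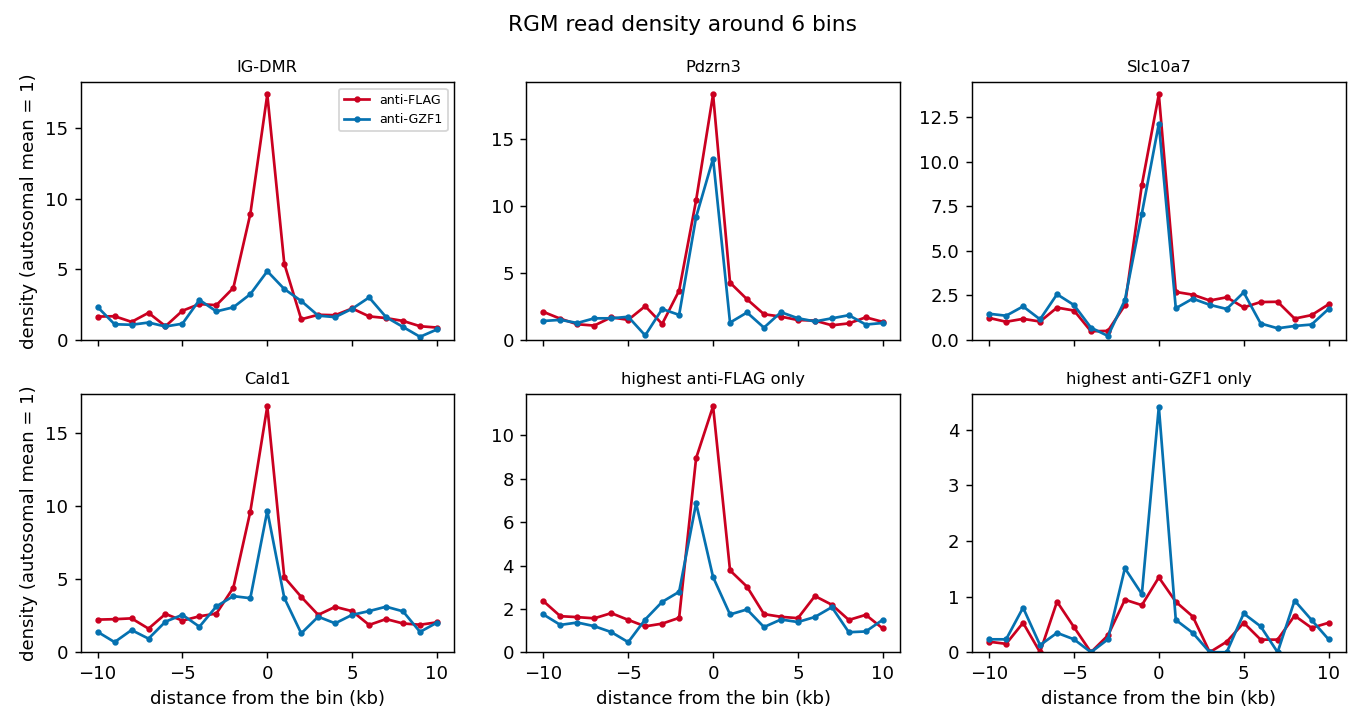
Read density of the RGM anti-FLAG and wild-type anti-GZF1 libraries (vertical axis, autosomal mean set to 1) in the 10 bins on each side of 6 bins (horizontal axis, kb). Both libraries peak at Pdzrn3 and Slc10a7, anti-FLAG reaches 17.4 against 4.88 at the IG-DMR, and at the highest anti-FLAG-only bin the anti-GZF1 density is higher in the bin to the left (6.87) than in the bin itself (3.47).

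At the IG-DMR, the anti-FLAG signal was the larger one. Its peak bin (chromosome 12, 109527001 to 109528000), inside Gm34081, held 460.35 anti-FLAG and 42 anti-GZF1 reads, with local log2 values of 3.01 and 1.30. The density with anti-FLAG was 3.57 times (2.59 to 5.01) that with anti-GZF1. The neighbouring bin with the Gm34081 start (109526001 to 109527000) held 236.5 and 28 reads, with values of 2.05 and 0.72, which puts it among the anti-FLAG-only bins. In Cas9 the anti-FLAG value of the peak bin was 3.12 and the wild-type anti-GZF1 value 1.16, so that the order of the antibodies was that of RGM. With anti-GZF1 the Cas9 control held 59.4 reads there, a local log2 value of 0.20, and the knockout 5 reads, a value of -0.81, below its flanks. H3K27ac was at 0.35, and the input held 0 reads, which allows a density of up to 0.764 by the limit of 3 reads.

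The 6 listed genes of the Dlk1-Dio3 domain, which do not include Gm34081, had 0 called bins with either antibody in a window from 5 kb before to 5 kb after each gene. Of all autosomal genes 0.140% had an anti-FLAG bin and 2.81% an anti-GZF1 bin, so that 0 of 6 does not set them apart. Their highest values were larger with anti-GZF1 than with anti-FLAG in all 6 genes. Dio3, which encodes an enzyme that inactivates thyroid hormone, reached 1.95 with anti-GZF1 (60.4 reads) in a bin with 0.92 for anti-FLAG (97.65 reads). Dlk1, which encodes a Notch-like ligand, reached 1.72 with anti-GZF1 and 1.16 with anti-FLAG in 1 bin, which had an H3K27ac value of 1.22. The highest values of the non-coding RNA genes were 1.64 and 0.98 at Meg3, 0.98 and 0.57 at Rian and 1.30 and 1.01 at Mirg, and those of the retrotransposon-derived gene Rtl1 0.80 and 0.48. Over the 6 genes the highest values had medians of 1.47 (anti-GZF1) and 0.95 (anti-FLAG), against 0.93 and 0.60 over 44466 autosomal genes. Every other gene list compared below also lay above those 2 background medians, the lowest being pluripotency genes at 0.99 and 0.65. The excess is therefore not particular to this domain. The anti-GZF1 library is shallower, and its values spread more over all tested bins, with quartiles of -0.40 and 0.33 against -0.24 and 0.20. The part of this in the maxima was not tested.

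Of the 43 anti-FLAG bins with anti-GZF1 in between, 22 had a gene end within 5 kb, 11 lay inside a gene only and 10 had neither. Some with high anti-FLAG values, picked after their values were seen, are named here. The bin in the gene model Gm33257 (chromosome 17, 36314001 to 36315000) held 324.9 anti-FLAG and 41 anti-GZF1 reads, with local log2 values of 2.99 and 1.88. Slc35d2, a nucleotide sugar transporter gene, had 600.4 and 69 reads (2.95 and 1.69), and Usp25, a deubiquitinase gene, 339.55 and 26.6 reads (2.91 and 1.58). At the start of Cald1, 444.75 and 83.2 reads gave 2.58 and 1.88, and at the start of Fbxw10, 331.9 and 54.55 reads gave 2.69 and 1.85. The bin in Nav2, a neuron navigator gene, was at 2.67 and 1.21, and that at Pomp, a proteasome assembly factor gene, at 2.56 and 1.13. Each of these 7 bins had a value of 2.51 or more with Cas9 anti-FLAG. Their Cas9 wild-type anti-GZF1 values ran from 1.08 at Pomp to 2.13 at Gm33257. At Zfp993, a zinc-finger gene, 2 bins differed from this pattern, with 2.21 and 2.09 in RGM anti-FLAG and 0.38 and 0.60 in Cas9 anti-FLAG.

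The 16 anti-FLAG-only bins were sites of Cas9 anti-FLAG as well. The highest lay on chromosome 2 (158557001 to 158558000) with no gene within 5 kb, and held 300.25 anti-FLAG reads (local log2 value 2.46) and 29.85 anti-GZF1 reads (0.99). A bin on chromosome 4 (141226001 to 141227000) held 349.75 and 30.3 reads, with 2.46 and 1.00. Ube2d1, a ubiquitin-conjugating enzyme gene, was at 2.31 and 0.77, and Mast4, a kinase gene, at 2.21 and 0.49. At a bin on chromosome 8 (128944001 to 128945000) 121.8 anti-FLAG and 6 anti-GZF1 reads gave 2.14 and 0.23, and near Gm35081 222.15 and 10 reads gave 2.13 and 0.22. Bins near Asrgl1, an asparaginase gene, at Gm52052 and on chromosome 4 (100632001 to 100633000) were at 2.16, 2.14 and 2.17 with anti-FLAG, and a second bin at Wdfy1 (79762001 to 79763000 on chromosome 1) at 2.14.

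The Wdfy1 bin adjoins the shared one, and 6 of the 16 anti-FLAG-only bins adjoined another anti-FLAG bin. By region, 10 of the 66 anti-FLAG regions had no bin with an anti-GZF1 value of 1 or more, 38 reached 1 to 2 and 18 reached 2. In all 16 bins Cas9 anti-FLAG was at 1 or more (median 2.26, 1.68 to 2.87). Cas9 wild-type anti-GZF1 was at 1 or more in 8, with a median of 0.94. With anti-GZF1 the medians were 0.12 in the Cas9 control and 0.12 in the knockout, so these bins show no loss in the knockout. They were 0.09 for H3K27ac and -0.02 in the input.

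The 90 anti-GZF1-only bins lay mostly at gene starts. The highest (chromosome 13, 66698001 to 66699000), over the gene models Vmn2r-ps106 and Gm40988, held 38 anti-GZF1 reads (local log2 value 2.64) and 35.6 anti-FLAG reads (0.97). The bin inside Fam172a held 46 and 64.05 reads, with 2.60 and 0.90. The shared start bin of Wasf1 and Cdc40, a splicing factor gene, held 69 anti-GZF1 and 72 anti-FLAG reads, with values of 2.45 and 0.96. That of Rad51ap1, a gene of homologous recombination, and D6Wsu163e was at 2.45 and 0.89. Values at the starts of Arap2, which encodes an Arf GTPase-activating protein, and Ccdc85c were 2.43 and 0.91, and 2.40 and 0.89. The shared start bin of Coa5, a cytochrome c oxidase assembly gene, and Unc50 was at 2.35 and 0.98, Nr2c2, an orphan nuclear receptor gene, at 2.33 and 0.97, Cavin3, a gene of caveolae, at 2.32 and 0.99, and Elk4, an ETS transcription factor gene, at 2.30 and 0.98. The anti-FLAG values of these 10 bins ran from 0.89 to 0.99, just under the limit of 1, and over the 90 bins they had a median of 0.92 and a minimum of 0.48. A place with anti-GZF1 and an anti-FLAG value at its local median was therefore not seen among the called bins.

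**Figure D3:**
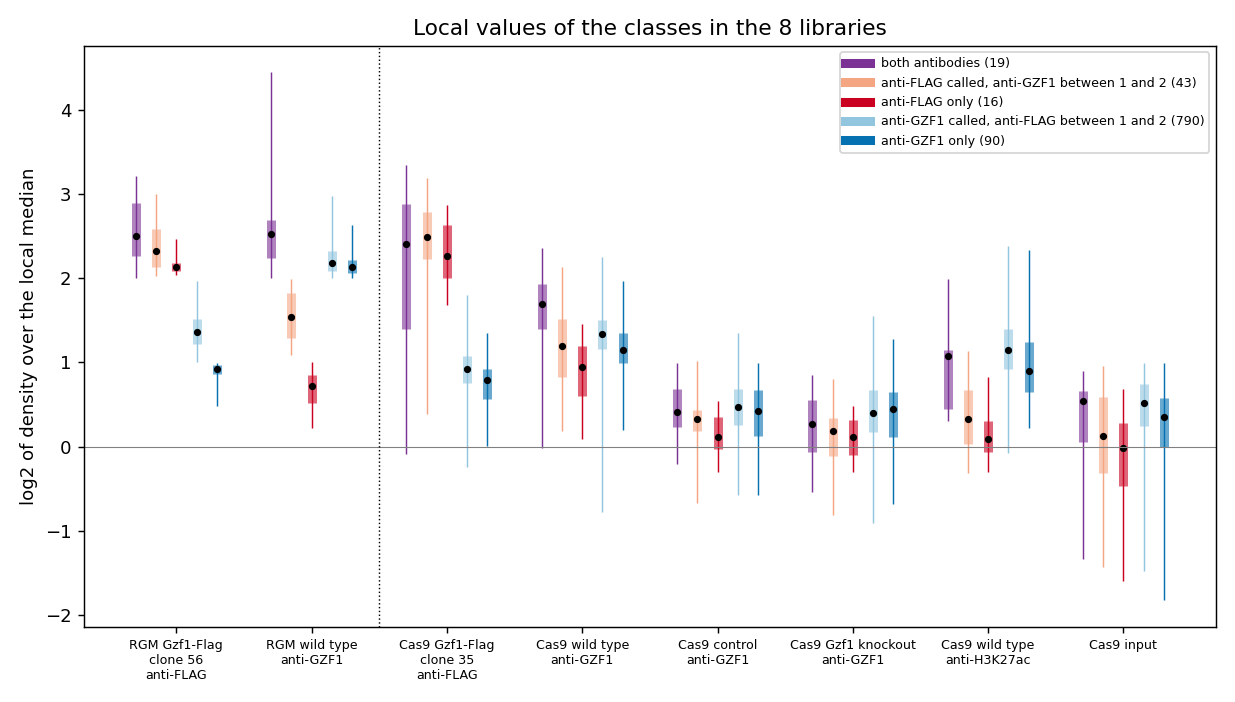
Local log2 values (vertical axis) of the 5 classes of bins in the 8 libraries (horizontal axis), with medians as points, quartiles as thick bars and the full range as thin lines. The classes were cut on the RGM libraries left of the dotted line, so the differences there are set by the choice. The input filter keeps the input values below 1. The 3 anti-FLAG classes have medians of 2.26 to 2.48 in Cas9 anti-FLAG, against 0.79 and 0.92 for the anti-GZF1 classes.

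Of the Cas9 libraries only the input took part in the choice, through the filter that set which bins were tested. The others took no part in cutting the classes. Anti-FLAG bins of RGM were anti-FLAG bins of Cas9: 73 of 78 had a Cas9 anti-FLAG value of 1 or more, where 0.0978% of all tested bins did, and 62 had 2 or more. Their median was 2.45. Of the 899 anti-GZF1 bins 308 reached 1 with Cas9 anti-FLAG (median 0.91), and 12 reached 2. With Cas9 wild-type anti-GZF1, 53 of the 78 anti-FLAG bins (median 1.30) and 788 of the 899 anti-GZF1 bins (median 1.32) were at 1 or more, against a background of 0.236%. The 2 sets thus differed in Cas9 anti-FLAG, while their Cas9 anti-GZF1 medians were nearly equal. The value of 2 was reached with Cas9 anti-GZF1 by 7 anti-FLAG bins and 13 anti-GZF1 bins.

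The knockout and the control of the Cas9 line were both low with anti-GZF1. In the knockout 0 of the 78 anti-FLAG bins and 40 of the 899 anti-GZF1 bins were at 1 or more, against 0.0298% of all tested bins, with medians of 0.19 and 0.40. In the control 1 and 36 bins were at 1 or more, with medians of 0.31 and 0.47. In the anti-GZF1-only bins the medians were 0.42 in the control and 0.44 in the knockout. With 1 anti-FLAG bin at 1 or more in the control, that count could not show a loss in the knockout. The count of anti-GZF1 bins showed none. By level, the anti-FLAG bins had quartiles of -0.10 and 0.38 in the knockout and of 0.12 and 0.47 in the control. Each is 1 library, and the difference was not tested. Both libraries lay below the Cas9 wild type.

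H3K27ac parted the 2 sets of tested bins. It was at 1 or more in 572 of the 899 anti-GZF1 bins (median 1.13) and in 13 of the 78 anti-FLAG bins (median 0.39), against 0.295% of all tested bins. Of those 13 anti-FLAG bins 11 were among the 19 shared ones, whose median was 1.07. The 16 anti-FLAG-only bins had 0 at 1 or more, and the anti-GZF1-only bins 39 of 90. The input (3.93 reads in the mean bin) had medians of 0.50 in the anti-GZF1 bins and 0.18 in the anti-FLAG bins, although bins at 1 or more had been left out. Its part in the H3K27ac difference was not tested. The 93 anti-FLAG bins that the input filter removed had an H3K27ac median of 1.40, with 66 of them at 1 or more. The difference is therefore described only for the bins that were kept.

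Gene position followed the same line. Starts come from the RefSeq promoter table, which was used for 18 of the 19 autosomes, and exons and introns were not analysed here. Of the anti-GZF1 bins on those autosomes 570 of 867 (65.7%) held an annotated start, as did 14 of 76 anti-FLAG bins (18.4%) and 0.990% of all tested bins. The gap depended on the length of the lists. A start was in 19.8% of the 100 highest anti-FLAG bins and 66.3% of the 100 highest anti-GZF1 bins. These shares were 43.6% and 65.6% among the 500 highest, and 42.7% and 46.8% among the 5000 highest. The nearest start was at a median distance of 0.300 kb from the anti-GZF1 bins, 17.0 kb from the anti-FLAG bins and 43.3 kb from all tested bins. More than 10 kb from a start lay 49 anti-FLAG bins (64.5%) and 155 anti-GZF1 bins (17.9%). A gene end within 5 kb was found for 52.6% of the anti-FLAG and 94.3% of the anti-GZF1 bins, against 25.04% of all. Of the anti-FLAG bins a further 20 lay inside a gene and 17 had neither. The anti-GZF1-only bins (66.3% with a start) were like the other anti-GZF1 bins in this, and the shared bins (31.6%) lay between.

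Promoters in called bins of either antibody were richer in CG than most. In the 250 bases before the start, CG occurred 4 times at the median of 22369 tested promoters, 23 times at 761 promoters in anti-GZF1 bins and 15 times at 18 promoters in anti-FLAG bins. The share of promoters in an anti-GZF1 bin rose from 0.052% of those with 0 to 4 CG to 26.9% of those with 30 or more. For anti-FLAG it rose from 0.0173% (2 of 11531) in the lowest class to 0.213% (8 of 3759) at 10 to 19 CG, and was 0.124% (1 of 808) at 30 or more. These shares rest on 18 promoters in all. Median local log2 values rose with CG count in both RGM libraries, from 0.08 to 1.05 with anti-FLAG and from 0.11 to 1.71 with anti-GZF1. From the lowest class to the highest H3K27ac went from 0.05 to 0.98 and Cas9 wild-type anti-GZF1 from 0.05 to 1.07. The Cas9 control went from 0.03 to 0.29, the knockout from 0.03 to 0.26 and the input from 0.00 to 0.38. Spearman's rho with CG count across promoters, which are not independent, was 0.63 with anti-FLAG and 0.62 with anti-GZF1. It was 0.59 for H3K27ac, 0.45 in the Cas9 control, 0.45 in the knockout and 0.24 in the input.

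**Figure D4:**
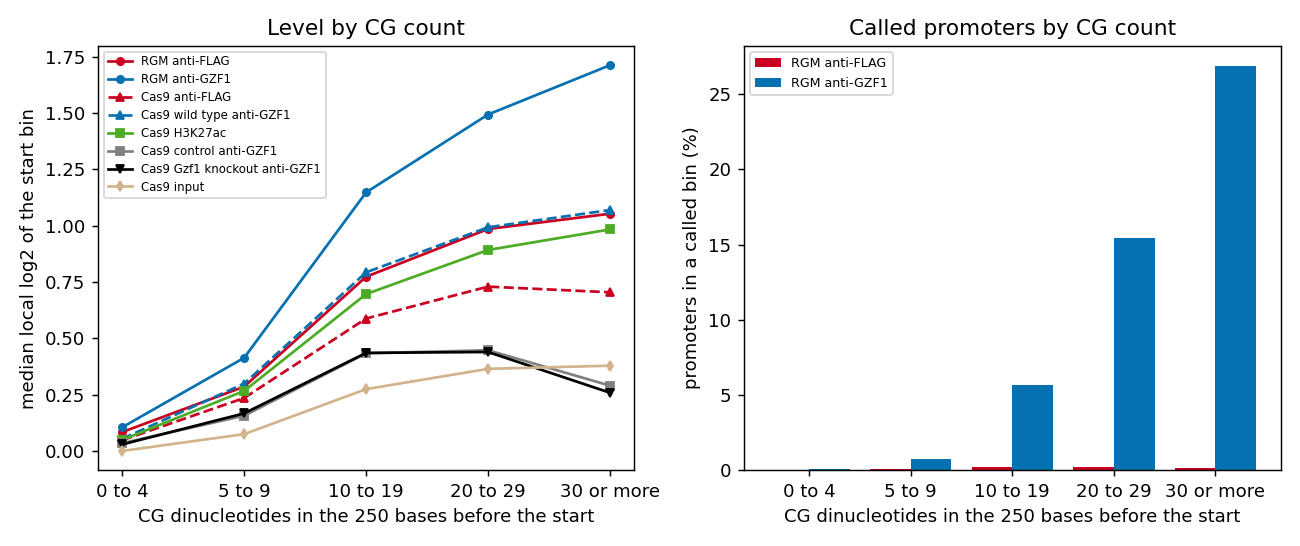
Promoters by the number of CG dinucleotides in the 250 bases before the start (horizontal axes). Left, the median local log2 value of the start bin in the 8 libraries, which is 1.05 with RGM anti-FLAG and 1.71 with RGM anti-GZF1 in the class of 30 or more. Right, the percentage of promoters in a called bin, which reaches 26.9% with anti-GZF1 and at most 0.213% with anti-FLAG.

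Bins were also grouped by their anti-FLAG value and by whether they held a start. At bins with a start, anti-FLAG values of 1.5 to 2 went with a median of 2.12 for anti-GZF1 and 1.18 for H3K27ac (220 bins), those of 2 to 2.5 with 1.87 and 0.69 (10 bins) and those above 2.5 with 2.19 and 0.95 (4 bins). At bins without a start, anti-FLAG values of 1.5 to 2 went with 1.63 for anti-GZF1, 0.87 for H3K27ac and 1.14 for Cas9 anti-FLAG (220 bins). Anti-FLAG values of 2 to 2.5 at such bins went with 1.29, 0.29 and 2.28 in that order (42 bins), and those above 2.5 with 1.76, 0.43 and 2.85 (20 bins). Of the 100 highest anti-FLAG bins in RGM 13 were among the 100 highest with RGM anti-GZF1, and 68 among the 100 highest with Cas9 anti-FLAG. Among the 1000 highest the order was the other way, with 423 and 350 shared. Across all tested bins Spearman's rho between the RGM antibodies was 0.31, and 0.71 across the 19933 bins with a start. These values share the chromatin preparation protocol and CG content, and describe these libraries.

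Around called bins the signal was narrow, which the rule in part sets. A bin was called for standing over the median of these same flanks, so a signal as wide as the flanks could not be called. In the anti-FLAG bins the median anti-FLAG value fell from 2.28 to 1.23 and 1.10 in the bins to the left and right, and to 0.41 and 0.37 one bin further. Anti-GZF1 there went from 1.58 to 0.62 and 0.58. In the anti-GZF1 bins it went from 2.18 to 0.78 and 0.72. Of the 66 anti-FLAG regions 54 were 1 bin long and the longest had 2 bins.

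The letters of the known GZF1 site were looked for in the same 250 bases on both strands. TGCGC, which itself holds a CG, was in 20.4% of all tested promoters, in 55.8% of those in anti-GZF1 bins and in 7 of 18 in anti-FLAG bins. TCTATA was in 7.01% of all, in 0.788% in anti-GZF1 bins and in 3 of 18 in anti-FLAG bins. The median share of G and C in these promoters was 50.8%, 67.6% and 57.2% in that order. Its part in the shares of either run of letters was not tested. The whole GZF1 consensus was in 1 of the 22369 promoters, which was in no called bin. Most anti-FLAG bins hold no promoter, and their sequence was not analysed here.

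Gene lists of the study's field were compared with all autosomal genes. With a window of 5 kb on each side, 66 of 47038 autosomal genes (0.140%) had an anti-FLAG bin and 1324 (2.81%) an anti-GZF1 bin. In the 7 lists 0 genes had an anti-FLAG bin, which is near what that share gives. Anti-GZF1 bins were found at 2 of 31 imprinted genes (6.45%) and 2 of 20 genes of methylation and imprint maintenance (10%), shares above that of all genes on 2 genes each, and at 0 of 22 GDNF-RET signalling, 21 pluripotency, 19 germline and 22 bivalent developmental genes. Herc3, a ubiquitin ligase gene that hosts the imprinted gene Nap1l5, was at 2.79 with anti-GZF1 and 1.65 with anti-FLAG. Gnas, which encodes a G protein subunit, was at 2.01 and 1.51. Smchd1, which encodes a chromatin protein of X inactivation and imprinting, was at 2.24 and 1.48, and Dnmt1, the maintenance DNA methyltransferase gene, at 2.02 and 1.25, with a knockout value of 1.09. The median highest values with anti-FLAG and anti-GZF1 were 0.83 and 1.35 for imprinted genes, 0.81 and 1.28 for methylation genes, 0.70 and 1.15 for GDNF-RET genes, 0.65 and 0.99 for pluripotency genes, 0.82 and 1.08 for germline genes and 0.92 and 1.30 for bivalent genes, beside 0.60 and 0.93 over all genes.

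Under the same rule the Cas9 line gave other proportions. Cas9 anti-FLAG called 124 bins, Cas9 wild-type anti-GZF1 16, and both 7. Of these calls 62 anti-FLAG and 13 anti-GZF1 bins were also called in RGM. An annotated start was in 14 of 118 Cas9 anti-FLAG bins (11.9%) and in 7 of 16 anti-GZF1 bins on the autosomes of the promoter table. The Cas9 wild-type library held 60.6 M reads, and that of RGM wild type 21.8 M. Thinning the RGM anti-FLAG reads to the anti-GZF1 depth raised its calls from 78 to 91. The part of depth in the numbers of anti-GZF1 calls was not tested.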

How the data were processed

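The deposited table holds estimated counts of reads per 1 kb bin (expected counts) for 8 of the 12 libraries; 4 libraries were not analysed here. Per the submitters' processing notes the authors trimmed reads with cutadapt, aligned them to mm10 with Bowtie2 2.5.4, and used SAMtools and deepTools; reads crossing a bin edge are split, and whether duplicates or poorly mapped reads were removed is not given in the sources used here. Of 2462755 autosomal bins, 2091403 (84.9%) were tested: they had 10 bins on each side, a local median density of at least 0.25 in both RGM libraries, and a Cas9 input density of at most 3 with an input local log2 value under 1. The Cas9 input served for RGM. Density intervals are exact Poisson, ratio intervals Clopper-Pearson on rounded reads, both 95%; reads are not independent molecules. The floor for 0 reads is 3 reads. With 1 library a side there was no test. Regions join called bins that lie within 1 kb of each other. RefSeq promoters matched autosomal bins in 31396 of 32851 entries. Named are the 15 shared regions highest in the lower library, the 10 highest anti-FLAG-only and anti-GZF1-only regions, the IG-DMR bin, the Dlk1-Dio3 genes and called genes of the other lists (1 region that this rule names is not reported here); the bins in between, Zfp993 and the printed promoters were chosen after their values were seen. Members and lists were chosen with earlier results of these data known. The rule was tested on simulated data. Software: scipy 1.17.1, pandas 2.3.3, numpy 2.4.6 and matplotlib 3.10.9 under Python 3.11.15.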

Additional observations from a re-analysis of the deposited data

Results flagged for a closer look

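Chromosome X was outside the comparison, which covered autosomes. The same rule called 4 bins there with anti-FLAG and 18 with anti-GZF1 among 98694 tested bins, with 1 bin called with both, and it is listed because it is signal in data that the comparison did not use. The anti-FLAG bins lay near Rab39b (75578001 to 75579000, local log2 value 2.93 with anti-FLAG and 1.93 with anti-GZF1), near Nbdy (153723001 to 153724000, 2.79 and 2.18), in Tbl1x (77509001 to 77510000, 2.03 and 1.67) and at 77433001 to 77434000 (2.06 and 1.49). Their Cas9 anti-FLAG values were 3.41, 3.17, 2.31 and 2.09 in that order, and the median of the knockout was 0.29. With anti-GZF1 the Cas9 control was also low, at 0.45, 0.06, 0.82 and 0.76 in that order.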

How the results depend on the processing

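The counts depend on the pseudocount, the threshold and the input filter, and each is given in the order anti-FLAG, anti-FLAG only, anti-GZF1, anti-GZF1 only and both antibodies, where the report has 78, 16, 899, 90 and 19. They were 143, 26, 1686, 271 and 62 with a pseudocount of 0.25, and 41, 5, 255, 38 and 7 with one of 1. They were 539, 83, 4670, 2132 and 384 at a threshold of 1.5, and 6, 0, 2, 0 and 2 at 3, where the shared bins are Cers5 and Ubqln1. Without the input filter they were 171, 18, 2518, 191 and 89. With the anti-FLAG reads thinned to the depth of anti-GZF1, anti-GZF1-only bins numbered 145 and shared bins 30, and the other 3 counts stayed within 1.5 times. The remaining alternatives, no local minimum, 25 bins on each side and 2 chosen after the data were seen (an input filter on density above 3 only, and bins under 0.5 in both Cas9 libraries left out), kept all 5 counts within 1.5 times. Of 74 values at named bins, 18 moved by more than their counting interval with a pseudocount of 0.25, 35 with 1, 12 with 25 bins and 10 with thinning, and 0 changed sign. Apart from what these constructions remove or add, the cause was not tested. No paired analysis was possible because each group is 1 library. An anti-GZF1 mean of 8.61 reads per bin and an input mean of 3.93 limit what single bins can show.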
